A study of Mus musculus with 12 samples.

Results

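Oxidative phosphorylation was followed through 93 genes: 80 in the nucleus and the 13 protein-coding genes of the mitochondrial genome. Genes were taken by symbol (the Nduf, Sdh, Uqcr, Cox and Atp5 families, Cyc1, Cycs and the mitochondrially encoded mt- genes), which matched 112 of 55487 gene identifiers in the count table. Of these, 8 were dropped because the name ends in -ps, the mark of a pseudogene, and 11 because their mean over the 12 libraries lay below 1 CPM, where CPM is a gene's count divided by the library's total and multiplied by 1e+06. The member nearest to that limit was Cox7a1 at 1.75 CPM on plain library totals, and the nearest gene outside it was Cox6c2 at 0.585 CPM. Ndufb1-ps was dropped by its name although it had 41 CPM. The nuclear genes comprised 35 of complex I, 4 of complex II, 9 of complex III, 14 of complex IV, 16 of complex V, the electron carrier Cycs, and Atp5s, which was kept outside the complexes. The mitochondrial genes comprised 7 of complex I, 1 of complex III, 3 of complex IV and 2 of complex V.

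The libraries were made from total RNA of CD8+ T-cells from splenocytes of C57BL/6 mice and fell into 4 groups of 3, which were given IL-2 or IL-12, each alone or with 80%TCM. The series title speaks of tumor-like conditions, and the labels used here do not spell out TCM, the length of treatment, or any step shared by all groups. Nor do they say whether libraries came from separate cultures or animals, so the spread behind the p-values is that of these libraries and may be technical. IL-2 and IL-12 are cytokines that act on T cells, IL-2 mainly as a growth factor and IL-12 mainly as a signal for effector differentiation.

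Oxidative phosphorylation is the last stage of respiration. Complexes I and II pass electrons from nutrients to ubiquinone, complex III passes them on to cytochrome c, complex IV reduces oxygen, and the proton gradient built on the way drives complex V, the ATP synthase. Complexes I, III, IV and V are built from subunits of both genomes, so nuclear transcription and mitochondrial transcription have to supply parts of the same machines. Activated T cells are known to raise both glycolysis and mitochondrial respiration.

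Total counts lay between 19500568 and 26007717 per library, except for replicates 1 and 2 of IL-12 with 49638920 and 42349121. All 93 genes passed the filter on low counts, which left 15897 genes to be tested. The 8 CD8 T cell markers summed to 4170 to 4670 CPM in IL-2 and 4760 to 4920 in IL-2 with TCM. In IL-12 they summed to 4370 to 4460 CPM, and in IL-12 with TCM to 4680 to 4930. Their sum was thus higher with TCM, without overlap, under both cytokines. Other marker lists also moved with the cytokine or TCM. The 7 platelet markers summed to 115 to 138 CPM in IL-2 and 49.4 to 62.2 in IL-2 with TCM. In IL-12 they summed to 63.8 to 75.3 CPM, and in IL-12 with TCM to 29 to 35.9. The 5 NK cell markers summed to 305 to 413 CPM in the IL-2 groups and 163 to 196 in the IL-12 groups. Of these, Klrk1 and Eomes are also T cell genes, and the other 3 had means under 1 CPM over the 12 libraries. Among the latter, Klrb1c reached 1.7 and 2.14 CPM in replicates 1 and 2 of IL-2 with TCM. B cell markers (7 genes, 5 with a mean under 1 CPM) summed to 18.2 to 21.3 CPM in the IL-2 groups and 6.96 to 10.6 in the IL-12 groups. The 4 CD4 T cell markers, 2 of them with a mean under 1 CPM, summed to 16.2 to 17.2 CPM in IL-12 and 29.2 to 33.1 in IL-12 with TCM without overlap, and to 17.6 to 23.5 in IL-2 and 19.9 to 33.6 in IL-2 with TCM. Of the 3 of them tested, 2 were called higher with TCM in IL-12 and 2 lower in each cytokine comparison. Among 9 myeloid markers 7 had a mean under 1 CPM, and S100a9 was at 0 in all libraries. Their sum was 10.9 to 14.3 CPM in IL-2 and 12.7 to 19.8 in IL-2 with TCM. In IL-12 the sum was 6.89 to 9.11 CPM, and in IL-12 with TCM 10.6 to 12.1. The IL-12 libraries without TCM thus lay below those of all other groups. The part of these cells in the differences below was not tested, and in bulk RNA fewer cells of a type and less RNA per cell cannot be told apart.

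Replicate 3 stood apart in both IL-2 groups. Pkm, a glycolytic pyruvate kinase, was at 1140, 1185 and 4028 CPM in the 3 IL-2 libraries and at 1151, 1090 and 3972 CPM in the 3 libraries of IL-2 with TCM. Vegfa, a hypoxia-inducible growth factor, was at 2.42, 3.26 and 32.9 CPM in IL-2. Of the 80 nuclear genes, 60 were lower in IL-2 replicate 3 than in both other IL-2 libraries, by a median of -0.12 on the log2 scale. In IL-2 with TCM 34 of 80 were lower in replicate 3 and 27 higher. Of the 13 mitochondrial genes, 9 and 11 were lowest in replicate 3 of IL-2 and of IL-2 with TCM, with median shifts of -0.198 and -0.426. Such counts alone do not set the IL-2 groups apart. In IL-12 with TCM, replicate 3 was lowest for all 13 mitochondrial and 43 of 80 nuclear genes, with median shifts of -0.127 and -0.04. The nuclear median in IL-2 with TCM was -0.018. In IL-12 replicate 3 was lowest for 0 of 13 and 26 of 80. Because Pkm and Vegfa differed so widely, counts of genes called are also given without replicate 3 of both IL-2 groups.

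The mitochondrial genes split into a high and a low set that follows their place in the genome. Compared per kilobase of exon, mt-Co1, the catalytic subunit of complex IV, was highest at 4790 CPM per kb over the 12 libraries, followed by mt-Cytb at 1589, mt-Nd1 at 1297, mt-Nd2 at 826, mt-Nd5 at 825, mt-Nd6 at 580 and mt-Nd4 at 528. The 6 genes that lie next to each other between mt-Co1 and mt-Nd4 stood far below. mt-Co2 had 65.3 CPM per kb, mt-Atp6 52.4, mt-Co3 48.3, mt-Atp8 28.6, mt-Nd3 12.5 and mt-Nd4l 10.1. Both sets came from the same libraries.

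**Figure D1:**
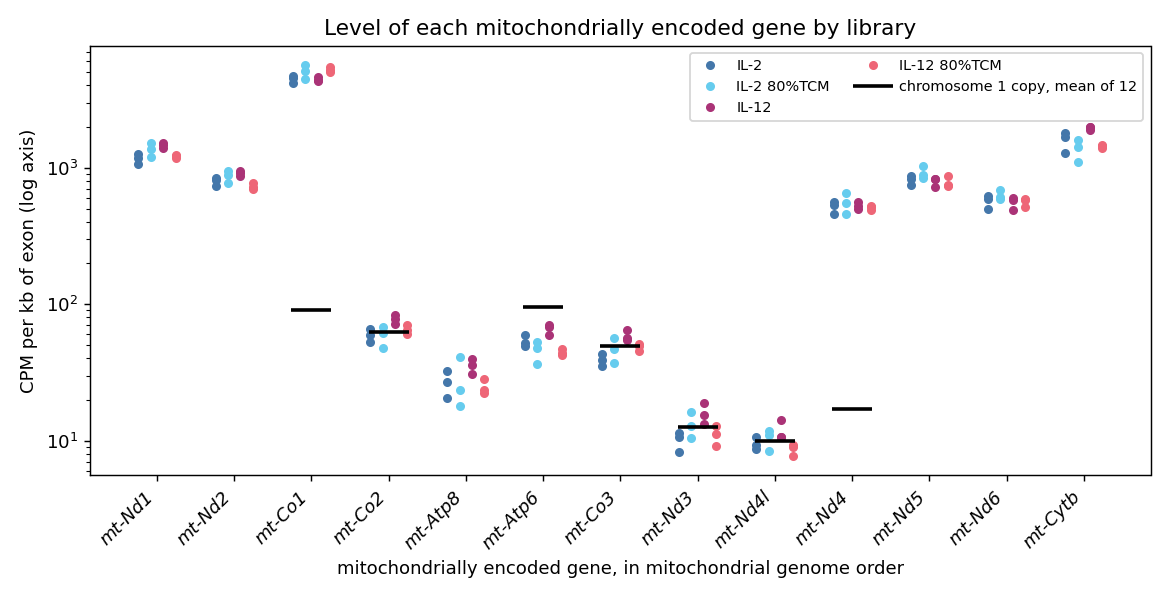
Level of each mitochondrially encoded gene in CPM per kb of exon (log axis) in mitochondrial genome order; each point is 1 library, coloured by group, and black bars are the mean of the annotated chromosome 1 copy. The 6 genes from mt-Co2 to mt-Nd4l lie between 10.1 and 65.3 CPM per kb in the mean, and the other 7 at 528 or more.

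Of those 6 genes, 5 also lie along their whole length in the nuclear genome. On chromosome 1 of GRCm38 (chr1:24611535-24616197, minus strand, GENCODE M21) a row of unprocessed pseudogenes covers the mitochondrial stretch from part of mt-Co1 to part of mt-Nd4. Gm28661 was identical to mt-Co2 over 681 bases, Gm10925 to mt-Atp6 over 678, Gm28437 to mt-Co3 over 783, Gm10222 to mt-Nd4l over 294 and Gm28439 to mt-Nd4 over 876. Gm28438 differed from mt-Nd3 in 1 base of 345, and Gm29216 from mt-Co1 in 1 base of 483. No annotated copy of mt-Atp8 was found. Less similar copies lie on chromosome 2, where Gm13341 differed from mt-Co2 in 16 of 684 bases and had 38 CPM. The first 60 bases of 2 pairs show how little there is to tell the genes apart: capitals mark the only base that differs between mt-Nd3 and Gm28438 (T3C, counted from the first base of mt-Nd3), and the mt-Atp6 pair has none.
mt-Nd3: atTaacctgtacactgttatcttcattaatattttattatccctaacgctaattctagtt
Gm28438: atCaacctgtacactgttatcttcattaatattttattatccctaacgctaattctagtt
mt-Atp6: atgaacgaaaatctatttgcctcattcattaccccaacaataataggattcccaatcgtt
Gm10925: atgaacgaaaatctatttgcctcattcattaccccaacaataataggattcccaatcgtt

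The counts of gene and copy were nearly equal for 4 pairs. mt-Co2 had a mean of 44.6 CPM and Gm28661 42.4 CPM, mt-Co3 37.8 and Gm28437 38.5, mt-Nd3 4.36 and Gm28438 4.31, and mt-Nd4l 3 and Gm10222 2.93. mt-Atp6 was at 35.7 CPM, below Gm10925 at 64.7 CPM. For mt-Co1 (7401 CPM) and mt-Nd4 (727 CPM), of which only a part is copied on chromosome 1, those copies had 44.3 and 14.8 CPM. Gm13340 on chromosome 2 differed from mt-Co1 in 37 of 1545 bases and had 148 CPM. The sources used here do not say how reads that match both places were counted, so the values of mt-Co2, mt-Co3, mt-Atp6, mt-Atp8, mt-Nd3 and mt-Nd4l are uncertain, in level and in difference. Among nuclear genes, 17 of 80 had an annotated copy of at least 98% identity over 100 bases. Only for Atp5l did the copies together (70.9 CPM over 11 copies) exceed the gene (27 CPM), and Cycs at 81.2 CPM had 7 copies that summed to 4.92 CPM. Ndufs1 overlaps Eef1b2, a gene at 1039 CPM, so its counts are uncertain too.

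IL-12 against IL-2 without TCM gave the broadest difference among the nuclear genes. Of 80, 58 were higher and 4 lower in IL-12 (edgeR quasi-likelihood test, adjusted p below 0.05 over all genes tested), where 45.1% of all genes were called, 22.1% higher and 23% lower. The median log2 fold change of the 80 was 0.23, against -0.01 for all genes, and the range ran from -1.10 to 1.20. Higher calls came from each complex: 27 of 35 for complex I, 3 of 4 for complex II, 7 of 9 for complex III, 8 of 14 for complex IV and 12 of 16 for complex V. Most changes were small, and complex medians lay between 0.19 and 0.32.

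The size of this shift depends on how libraries are scaled. TMM scaling, used here, gave factors of 1.03 to 1.05 to the IL-2 groups and 0.954 to 0.974 to the IL-12 groups. With plain library totals the median of all genes moved to -0.12 in both cytokine comparisons and that of the nuclear genes to 0.11 without TCM and 0.04 with TCM, which leaves the distance from the median gene about the same. Calls fell to 30 higher and 5 lower without TCM, beside 2255 higher and 4991 lower among all genes. Of complex I genes 8 were then called higher and 2 lower, while complex V had 9 higher and 0 lower.

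**Figure D2:**
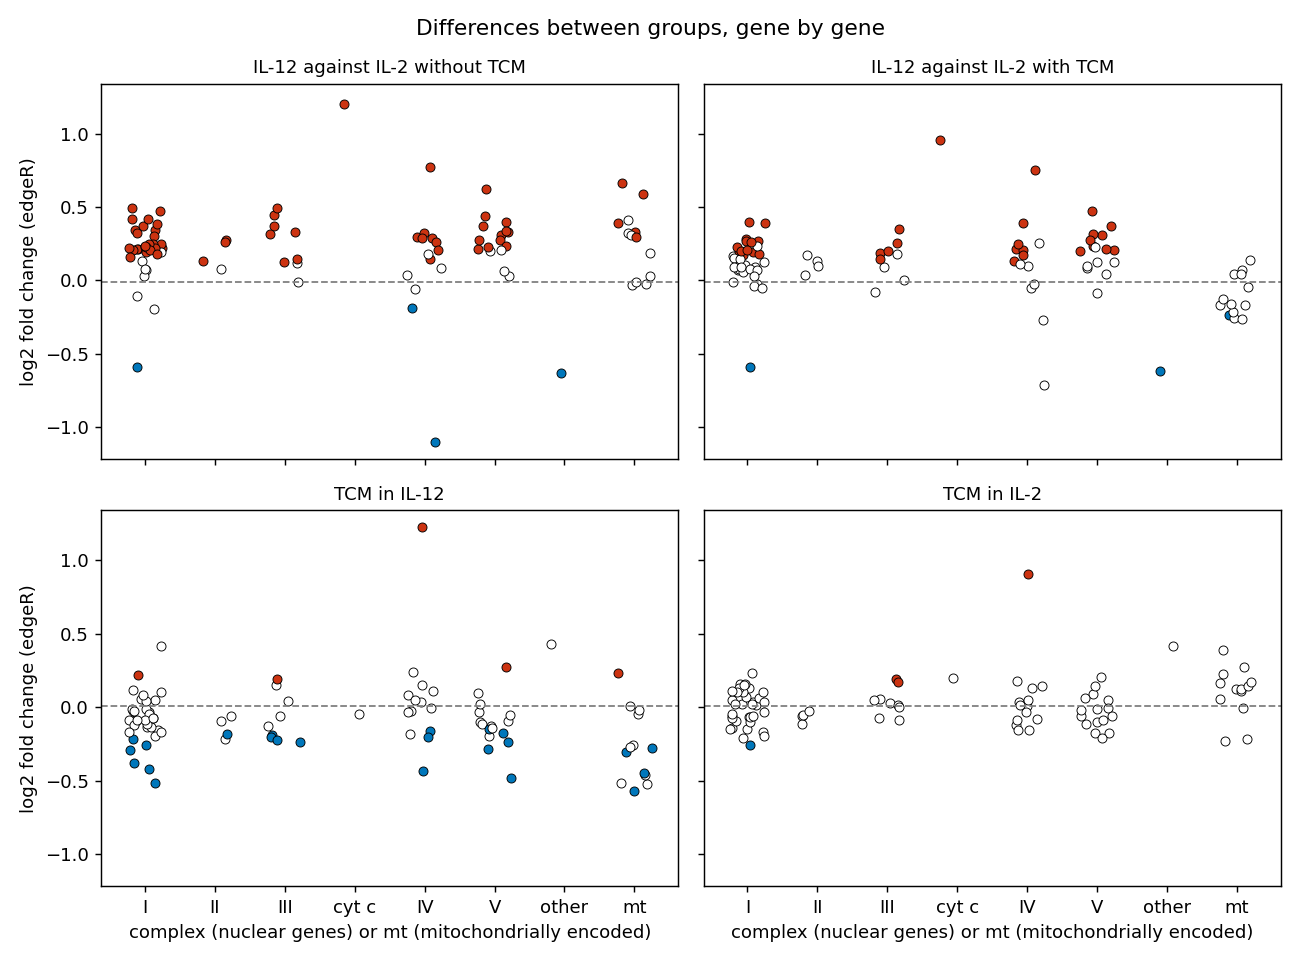
log2 fold change (edgeR) of each gene in 4 comparisons, by complex for nuclear genes (cyt c is Cycs, other is Atp5s) and for mitochondrially encoded genes (mt); red points were called higher, blue lower, white not called, and the dashed line is the median of all genes. In IL-12 against IL-2 without TCM 58 nuclear genes are red and 4 blue, and with TCM in IL-12 4 are red and 19 blue.

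Cycs, which encodes cytochrome c, the mobile carrier between complexes III and IV, differed most. It was at 56.5, 51.6 and 38.1 CPM in the 3 IL-2 libraries and at 117, 113 and 106 CPM in the 3 IL-12 libraries. Every IL-12 library lay above every IL-2 library, and the log2 fold change was 1.20 ± 0.13 (SE, edgeR adjusted p = 1.2e-05). Replicate 3 of IL-2 was the lowest, and without the replicate 3 of either IL-2 group the change was 1.05. With TCM the levels were 61, 62.2 and 44.5 CPM in IL-2 and 107, 110 and 109 CPM in IL-12, a log2 fold change of 0.95 ± 0.13 (edgeR adjusted p = 8.9e-05).

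Within complex IV, Cox5a, a nuclear-encoded structural subunit, rose in IL-12 without and with TCM. It was at 42.6, 50.1 and 42 CPM in IL-2 and 79.4, 71.3 and 79.6 CPM in IL-12, a log2 fold change of 0.77 ± 0.08 (edgeR adjusted p = 3.2e-06). With TCM it was at 46.7, 49.8 and 50.8 CPM in IL-2 and 81.9, 87.6 and 79.2 CPM in IL-12, a change of 0.75 ± 0.08 (edgeR adjusted p = 3.9e-06). The groups did not overlap, and its call held under every alternative tried. Smaller rises without TCM were those of Cox8a (0.29), Cox6b1 (0.29) and Cox6a1 (0.26), while Cox4i1, the major isoform of the regulatory subunit 4, stayed at 0.04 (edgeR adjusted p = 0.53).

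In complex V the rise was shared by the catalytic head and the membrane ring. Atp5b, the catalytic beta subunit, was at 1077, 1057 and 935 CPM in IL-2 and 1334, 1240 and 1232 CPM in IL-12, with a log2 fold change of 0.31 ± 0.06 (edgeR adjusted p = 0.0009). The alpha subunit Atp5a1 rose by 0.21 ± 0.06 (edgeR adjusted p = 0.009, and 0.18 with plain library totals). Atp5g1, Atp5g2 and Atp5g3 all encode the same mature c subunit of the ring. Atp5g1 was at 50.9, 48.1 and 41.1 CPM in IL-2 and 73.4, 70.2 and 72.4 CPM in IL-12, a change of 0.62 ± 0.09 (edgeR adjusted p = 8.2e-05). Atp5g3, the most abundant of these genes per kb at 111 CPM per kb, rose by 0.44 ± 0.07 (edgeR adjusted p = 0.00028), and Atp5g2 differed by 0.07 ± 0.06 (edgeR adjusted p = 0.39).

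Genes of complexes I, II and III had median log2 fold changes of 0.22, 0.20 and 0.32, beside 0.19 for complex IV and 0.28 for complex V. Ndufb6 (0.49), Ndufc1 (0.47) and Ndufa12 (0.42), accessory subunits of complex I, led that complex, and Uqcrq (0.49) and Cyc1 (0.45), the latter cytochrome c1, led complex III. Uqcrq was at 73.4, 70.6 and 63.5 CPM in IL-2 and at 94.9, 98.3 and 98.2 CPM in IL-12 without overlap (edgeR adjusted p = 1.4e-05). Among core subunits, Ndufs1 rose by 0.23 (edgeR adjusted p = 0.02), Ndufv1 differed by 0.08 (0.50), Uqcrc1 by 0.12 (0.069) and Uqcrfs1, the Rieske iron-sulfur protein, by -0.01 (0.93). In complex II Sdha rose by 0.13 and Sdhb by 0.27, with edgeR adjusted p of 0.046 and 0.048. The calls of Sdha, Sdhb and Ndufs1 were lost with plain library totals (0.82, 0.23 and 0.23) and without IL-2 replicate 3 (0.19, 0.2 and 0.092). A fit with replicate number as a block in the IL-2 groups sets IL-12 against the fitted level of replicate 1 there, not the mean. In that block fit the calls of Sdha (0.34) and Ndufs1 (0.16) were lost too.

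The 4 nuclear genes called lower were Cox7a1, Atp5s, Ndufb2 and Cox7a2l. Cox7a1, known as the heart and muscle isoform of subunit 7a, was at 1.9, 1.57 and 3.69 CPM in IL-2 and at 1.06, 1.04 and 1.26 CPM in IL-12 (log2 fold change -1.10 ± 0.39, edgeR adjusted p = 0.035). Replicate 3 of IL-2 was the highest library, and without it the adjusted p was 0.19. The call was also lost without any single IL-12 library (0.055 to 0.1), but not without the replicates 3 of IL-2 and IL-2 with TCM (-0.67, 0.026). In the block fit, against the fitted level of replicate 1 of IL-2, the call was lost as well (0.081). Ndufb2, a small subunit of complex I, was at 4.5, 4.15 and 3.73 CPM in IL-2 and 3.26, 2.67 and 2.16 CPM in IL-12 (-0.59 ± 0.16, edgeR adjusted p = 0.008). It lies across Braf, a gene on the opposite strand at 60.8 CPM, and whether the authors counted by strand is unknown here. Cox7a2l, a factor of supercomplex assembly, fell by 0.19 on the log2 scale, and that call was lost when any of 9 libraries was left out (edgeR adjusted p 0.061 to 0.19). Atp5s, a regulator of the synthase, was at 3.26, 4.59 and 4 CPM in IL-2 and 2.64, 2.57 and 2.42 CPM in IL-12 (-0.63, edgeR adjusted p = 0.0044). In the block fit, against the fitted level of replicate 1, its edgeR adjusted p was 0.07.

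Of the 13 mitochondrial genes, 5 were higher and 0 lower in IL-12 without TCM, where 22.1% of all genes were higher and 23% lower. Among the 7 abundant genes the call was mt-Nd1, a complex I subunit, at 1199, 1125 and 1011 CPM in IL-2 and 1396, 1340 and 1461 CPM in IL-12 (log2 fold change 0.33 ± 0.08, edgeR adjusted p = 0.0048). The groups did not overlap. The other calls were mt-Nd3 (0.66), mt-Co3 (0.59), mt-Co2 (0.39) and mt-Atp6 (0.29, edgeR adjusted p = 0.05 after rounding, inside the threshold), all from the low set with chromosome 1 copies. mt-Co1 did not pass the test at -0.01 (0.89), nor did mt-Nd4 at 0.03 (0.84), mt-Nd5 at -0.03 (0.78) or mt-Nd6 at -0.03 (0.83). Without replicate 2 of IL-2, or without replicate 1 of IL-12, 2 of the 13 genes were called, beside 39% and 34.3% of all genes. In the block fit IL-12 is set against the fitted level of replicate 1 of IL-2, not the group mean. Against that level mt-Atp6 was lost (0.18, edgeR adjusted p = 0.15), while mt-Nd2 (0.23, 0.022) and mt-Cytb (0.19, 0.015) were called higher.

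**Figure D3:**
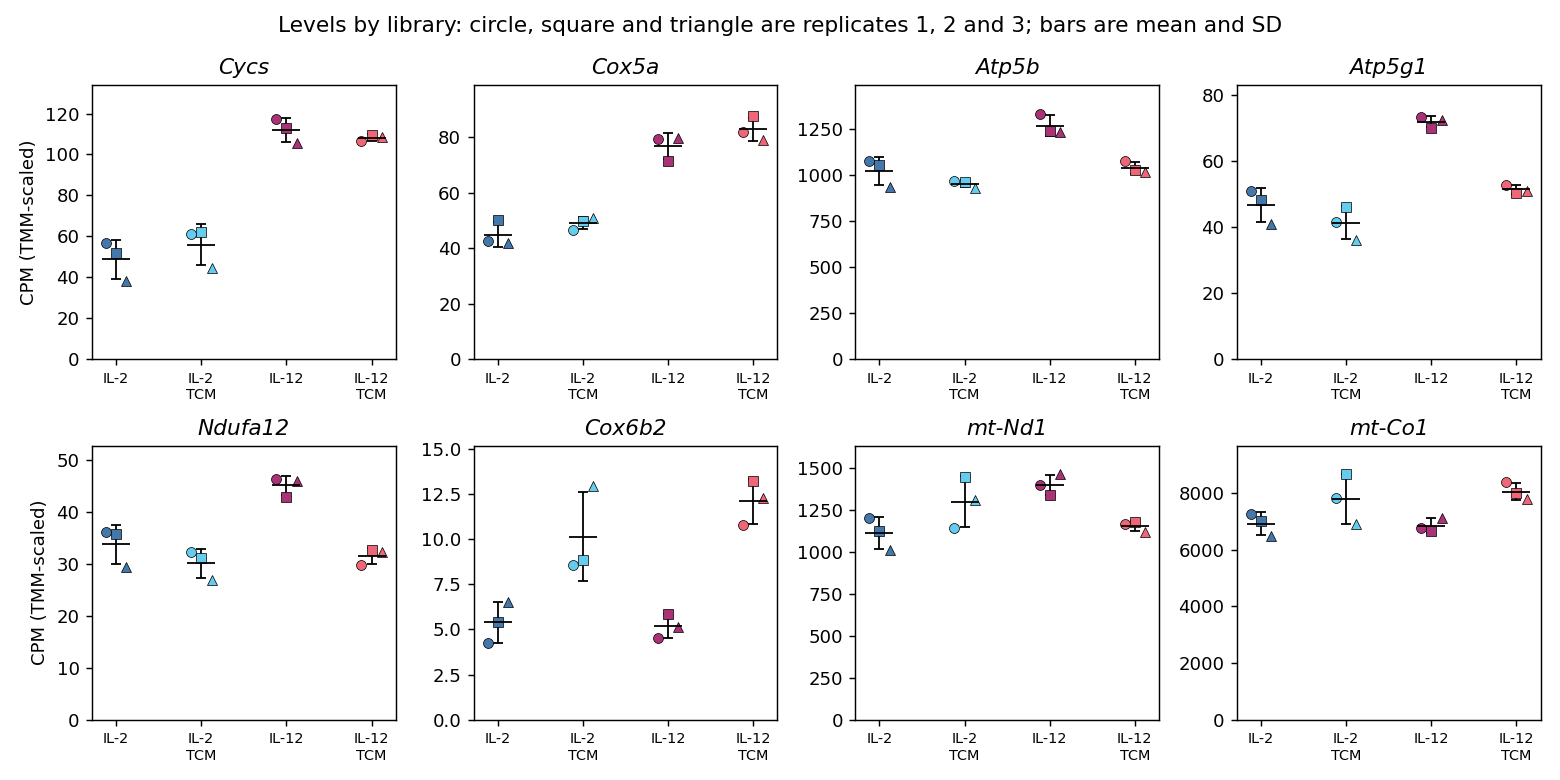
CPM on TMM-scaled library sizes of 8 genes in the 12 libraries, by group; symbols are replicates, bars the mean and SD of 3. Cycs lies at 38.1 to 62.2 CPM in the 6 IL-2 libraries and at 106 to 117 CPM in the 6 IL-12 libraries, and Cox6b2 is higher with TCM under both cytokines.

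With TCM on both sides, IL-12 against IL-2 gave 36 nuclear genes higher and 2 lower, where 39% of all genes were called, 19.5% higher and 19.4% lower. The median was 0.16, and the 2 lower genes were Ndufb2 (-0.59) and Atp5s (-0.62), as without TCM. Complex II gave no call, complex I 14 of 35 higher, complex III 5 of 9, complex IV 7 of 14 and complex V 9 of 16. With plain library totals the calls were 10 higher and 7 lower, beside 12.6% and 28.5% of all genes. Behind Cycs and Cox5a came Atp5d, the delta subunit of the central stalk, at 157, 186 and 198 CPM in IL-2 with TCM and 244, 259 and 246 CPM in IL-12 with TCM (0.47 ± 0.07, edgeR adjusted p = 0.00016). Ndufa1 (0.40), Cox8a (0.39), Ndufa11 (0.39) and Uqcrq (0.35) followed. The count fell to 23 without replicate 1 and to 18 without replicate 2 of IL-12 with TCM. Calls among all genes then fell from 39% to 30.1% and 30.4%. In the block fit IL-12 with TCM is set against the fitted level of replicate 1 of IL-2 with TCM, not the group mean. Against that level Atp5s was lost (-0.40, edgeR adjusted p = 0.088), Cox6b2 (0.54, 0.0053) was called higher and Ndufa4 (-0.42, 4.5e-05) lower.

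Among the 13 mitochondrial genes in that comparison, 0 were higher and 1 lower, beside 19.5% and 19.4% of all genes. Their median was -0.16, below the all-gene median of -0.01. Without replicate 2 of IL-2 with TCM that median was 0.00, beside -0.02 for all genes. The call was mt-Nd2, a complex I subunit, at 801, 916 and 981 CPM in IL-2 with TCM and 805, 754 and 729 CPM in IL-12 with TCM (-0.24 ± 0.08, edgeR adjusted p = 0.024). The lowest IL-2 library overlapped with the highest IL-12 library. Against the fitted level of replicate 1 in the block fit mt-Nd2 was lost (-0.20, edgeR adjusted p = 0.052), and mt-Nd5 (-0.24, 0.017) and mt-Nd4 (-0.18, 0.045) were called lower. All 7 mitochondrial genes of complex I had a negative sign, and without the replicates 3 of IL-2 and IL-2 with TCM 7 of the 13 mitochondrial genes were called lower, where the share of all genes called lower was 24.5%.

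TCM in IL-12 lowered more of these genes than it raised. Of the 80 nuclear genes 19 were lower and 4 higher, where 29% of all genes were called, 14.2% lower and 14.8% higher, and the median was -0.09 against 0.01 for all genes. Lower calls were 6 of 35 in complex I, 1 of 4 in complex II, 4 of 9 in complex III, 3 of 14 in complex IV and 5 of 16 in complex V. Without the replicates 3 of IL-2 and IL-2 with TCM, which are in neither group here but share the estimate of the spread, the counts were 32 lower and 7 higher, and with replicate number as a block in those groups 28 lower and 7 higher. Calls among all genes rose as well, to 22.9% lower and 23.1% higher without those libraries and to 19.9% and 22.1% with the block. Without replicate 1 of IL-12, or without replicate 3 of IL-12 with TCM, 11 nuclear genes were called. Calls among all genes fell too, from 29% to 18% and 18.8%. The IL-12 libraries enter this comparison and the one with IL-2, so the values are given side by side and not related to each other.

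Among the nuclear genes Ndufa12, an accessory subunit of complex I, fell most. It was at 46.3, 42.9 and 45.9 CPM in IL-12 and 29.7, 32.6 and 32.3 CPM in IL-12 with TCM, a log2 fold change of -0.51 ± 0.09 (edgeR adjusted p = 0.00094). Against IL-2 without TCM this gene had been higher in IL-12 by 0.42. Ndufs8, a core iron-sulfur subunit, was at 70.7, 68 and 69.6 CPM in IL-12 and 53.4, 53.9 and 53 CPM with TCM (-0.38 ± 0.06, edgeR adjusted p = 0.00086). The groups did not overlap for either gene, and both calls held under every alternative tried. Without TCM the call of Ndufs8 against IL-2 was lost in 8 of 12 repeats that left out 1 library (edgeR adjusted p up to 0.16). It was also lost in the block fit (0.16, edgeR adjusted p = 0.072), which compares with the fitted level of replicate 1. Ndufa5 (-0.42), Ndufa9 (-0.29) and Ndufv1 (-0.26) also fell in complex I.

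In complex V, Atp5g1 was at 73.4, 70.2 and 72.4 CPM in IL-12 and 52.8, 50.4 and 51.1 CPM with TCM (-0.49 ± 0.09, edgeR adjusted p = 0.0014). Atp5b fell from 1334, 1240 and 1232 CPM to 1075, 1028 and 1014 CPM (-0.29 ± 0.06, edgeR adjusted p = 0.0031), and Atp5a1 by 0.24 on the log2 scale. Neither gene overlapped between the groups. Atp5d went the other way and rose by 0.27 ± 0.07 (edgeR adjusted p = 0.011). In complexes III and IV, Cyc1 (-0.24), Uqcrq (-0.22), Uqcrc1 (-0.20), Ndufa4 (-0.43) and Cox6a1 (-0.20) fell, while Uqcrh rose by 0.19 and Ndufa6 of complex I by 0.22. The calls of Cyc1, Ndufa4, Ndufv1 and Ndufa6 were each lost when any of at least 4 single libraries was left out.

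Cox6b2, described as the testis isoform of subunit 6b, was the member that rose most with TCM under both cytokines. It was at 4.28, 5.4 and 6.53 CPM in IL-2 and 8.58, 8.85 and 13 CPM with TCM, a log2 fold change of 0.91 ± 0.19 (edgeR adjusted p = 0.0063). In IL-12 it was at 4.53, 5.88 and 5.13 CPM and with TCM at 10.8, 13.2 and 12.3 CPM (1.22 ± 0.18, edgeR adjusted p = 0.00041). The libraries with TCM lay above those without in both cases. Per kb it was a minor isoform, at 7.4 CPM per kb against 213 for Cox6b1, whose TCM differences were 0.01 and -0.03. Replicate 3 was the highest IL-2 library with and without TCM, and without both the change in IL-2 was 0.84 (edgeR adjusted p = 0.00015). When only the IL-2 groups were fitted, the adjusted p was 0.058.

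Of the 13 mitochondrial genes, 4 were lower and 1 higher with TCM in IL-12, where 14.2% of all genes were lower and 14.8% higher. Their median was -0.28, against 0.01 for all genes. mt-Cytb, the cytochrome b of complex III, was at 2172, 2287 and 2286 CPM in IL-12 and 1687, 1650 and 1601 CPM with TCM (-0.45 ± 0.13, edgeR adjusted p = 0.018). mt-Nd1 fell from 1396, 1340 and 1461 CPM to 1168, 1175 and 1120 CPM (-0.28 ± 0.08, edgeR adjusted p = 0.021), and mt-Nd2 by 0.30 on the log2 scale. These groups did not overlap. mt-Co1 was the exception, at 6768, 6649 and 7131 CPM in IL-12 and 8371, 7984 and 7771 CPM with TCM (0.23 ± 0.07, edgeR adjusted p = 0.034). mt-Atp6 fell by 0.57 on the log2 scale (edgeR adjusted p = 0.0028), beside -0.35 (0.064) for its copy Gm10925. The call of mt-Co1 was lost when any of 9 libraries was left out, the 6 of these groups among them (edgeR adjusted p up to 0.16), that of mt-Nd1 without any of 5 of these 6 (0.053 to 0.083), and that of mt-Cytb without any of 4 (up to 0.07). In all, 2 of the 13 genes were called without replicate 3 of IL-12 or replicate 2 or 3 of IL-12 with TCM. Of all genes 21.3%, 19.3% and 18.8% were then called. With the replicate block in the IL-2 groups 1 was higher and 9 lower, beside the 19.9% of all genes then called lower, the added ones being mt-Co2, mt-Co3, mt-Nd3, mt-Nd4l and mt-Atp8.

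As a description without a test, mt-Co1 made up 48.4, 48.9 and 48.8% of the summed mitochondrial CPM in IL-12 and 56.8, 56.7 and 57% in IL-12 with TCM. In IL-2 it made up 51.1, 51.7 and 53.7%, and with TCM 55.1, 53.8 and 53.1%. The share was lowest in IL-12 and highest in IL-12 with TCM, and these 2 groups overlapped with no other. The rest of the mitochondrial sum moved down, from 7220, 6949 and 7474 CPM in IL-12 to 6380, 6096 and 5858 CPM in IL-12 with TCM. The whole sum hardly differed, at 14060 ± 508 CPM in IL-12 and 14150 ± 565 CPM with TCM (SD, n = 3).

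**Figure D4:**
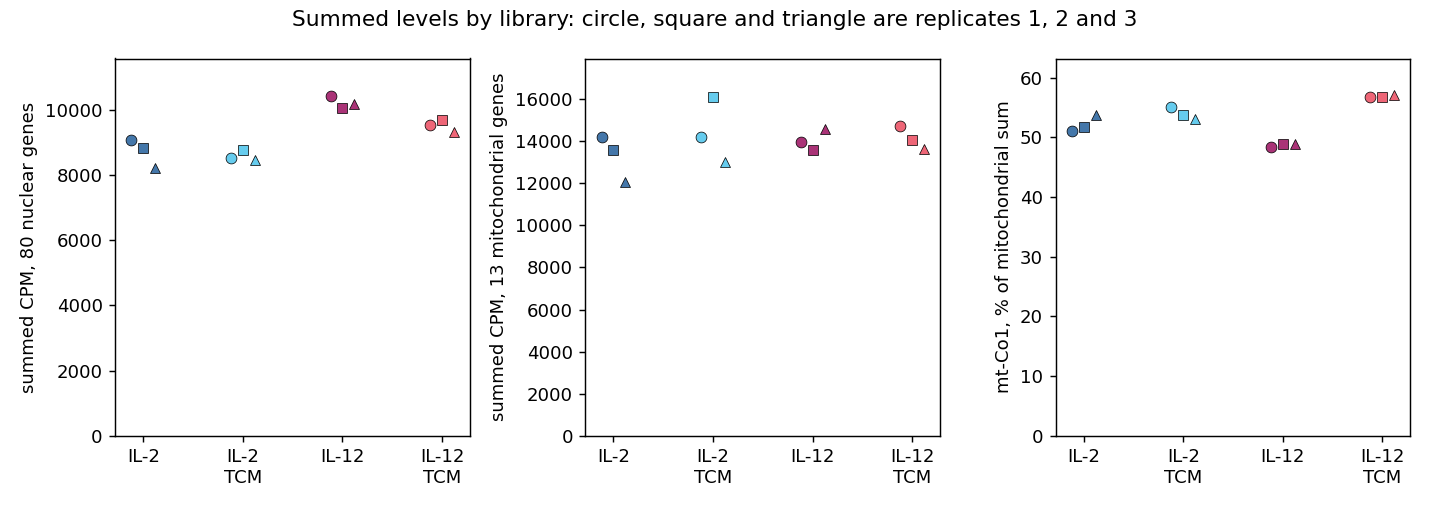
Summed CPM of the 80 nuclear genes (left) and of the 13 mitochondrial genes (middle), and the share of mt-Co1 in the mitochondrial sum in percent (right), by group; each symbol is 1 library. The nuclear sum is highest in the 3 IL-12 libraries, and the share of mt-Co1 lies at 48.4 to 48.9% in IL-12 and 56.7 to 57% in IL-12 with TCM.

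The nuclear sum was 8730 ± 440 CPM in IL-2, 8595 ± 155 in IL-2 with TCM, 10230 ± 180 in IL-12 and 9529 ± 192 in IL-12 with TCM (SD, n = 3). All IL-12 libraries without TCM lay above all others. By complex, the IL-12 mean over the IL-2 mean was 1.21 for complex V, 1.16 for complex III, 1.14 for complex I and 1.13 for complexes II and IV. With TCM in IL-12 the ratio to IL-12 was 0.891 for complex V and 0.982 for complex IV. The mitochondrial sum over the nuclear sum was 1.52 ± 0.05 in IL-2, 1.68 ± 0.15 in IL-2 with TCM, 1.38 ± 0.05 in IL-12 and 1.49 ± 0.05 in IL-12 with TCM (SD, n = 3). Together the mitochondrial genes took 1.21 to 1.61% of the scaled counts in the 12 libraries.

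TCM in IL-2 gave few calls. Of 80 nuclear genes 3 were higher and 1 lower, where 14.5% of all genes were called, 6.73% higher and 7.82% lower, and the median was 0.00. The higher genes were Cox6b2 (above), Uqcrc2 and Uqcrh, a core protein and the hinge protein of complex III. Uqcrc2 was at 173, 161 and 157 CPM without TCM and 177, 184 and 197 CPM with it (0.19 ± 0.05, edgeR adjusted p = 0.03). Uqcrh was at 157, 152 and 152 CPM without TCM and 173, 176 and 171 CPM with it (0.17 ± 0.05, edgeR adjusted p = 0.025). The call of Uqcrc2 was lost without any of 6 libraries (up to 0.1) and that of Uqcrh without any of 5 (up to 0.085). Of the 13 mitochondrial genes 0 were called in either direction by edgeR and 1 by DESeq2, and mt-Nd1 and mt-Co1 had an unadjusted edgeR p below 0.05 (0.016 and 0.038).

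Because same-numbered libraries of the IL-2 groups deviated together, replicate number was also fitted as a block within them. The block raised the calls for TCM in IL-2 to 10 higher and 6 lower among the 80 nuclear genes and to 3 higher and 2 lower among the 13 mitochondrial genes. Calls among all genes rose from 14.5% to 27.9%, which is a larger share than that of the nuclear genes. The added rises included Atp5d (0.20, edgeR adjusted p = 0.011) and Cycs (0.20, 0.0076). The added falls included Ndufv1 (-0.20, 0.0033), Atp5g1 (-0.18, 0.021), Ndufa12 (-0.16, 0.048), Ndufa9 (-0.16, 0.047) and Cox6a1 (-0.15, 0.018). Among mitochondrial genes mt-Nd1 (0.22), mt-Co1 (0.17) and mt-Co3 (0.27) were higher and mt-Cytb (-0.21) and mt-Atp6 (-0.24) lower. Leaving out replicate 3 of both groups instead gave 3 higher and 11 lower nuclear genes and 3 higher and 1 lower mitochondrial genes, beside 24.7% of all genes.

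Whether TCM acted differently under either cytokine was tested as an interaction. Of the nuclear genes 0 of 80 were called by edgeR or DESeq2, where 1.58% of all genes were called, 1.19% higher and 0.39% lower. Of the mitochondrial genes 1 of 13 was called, mt-Nd1, whose TCM effect was 0.22 in IL-2 and -0.28 in IL-12 (difference -0.50 ± 0.11, edgeR adjusted p = 0.048). The libraries given IL-2 were at 1199, 1125 and 1011 CPM alone and 1143, 1446 and 1307 CPM with TCM, with overlap, where the IL-12 libraries fell without overlap. That call was lost in 9 of 12 repeats that left out 1 library (edgeR adjusted p up to 0.15). With the replicate block described for TCM in IL-2, 7 nuclear genes had a lower TCM effect in IL-12, among them Ndufa4 (-0.45, edgeR adjusted p = 0.00061), Ndufa12 (-0.35, 0.0096), Atp5g1 (-0.31, 0.012), Cyc1 (-0.27, 0.013) and Cycs (-0.25, 0.03), as did 5 mitochondrial genes, where 10.5% of all genes were called, 4.14% lower. Without the replicates 3 of IL-2 and IL-2 with TCM 1 nuclear gene was higher and 8 lower, and 8 mitochondrial genes were lower, where 13.2% of all genes were called, 6.24% lower.

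**Figure D5:**
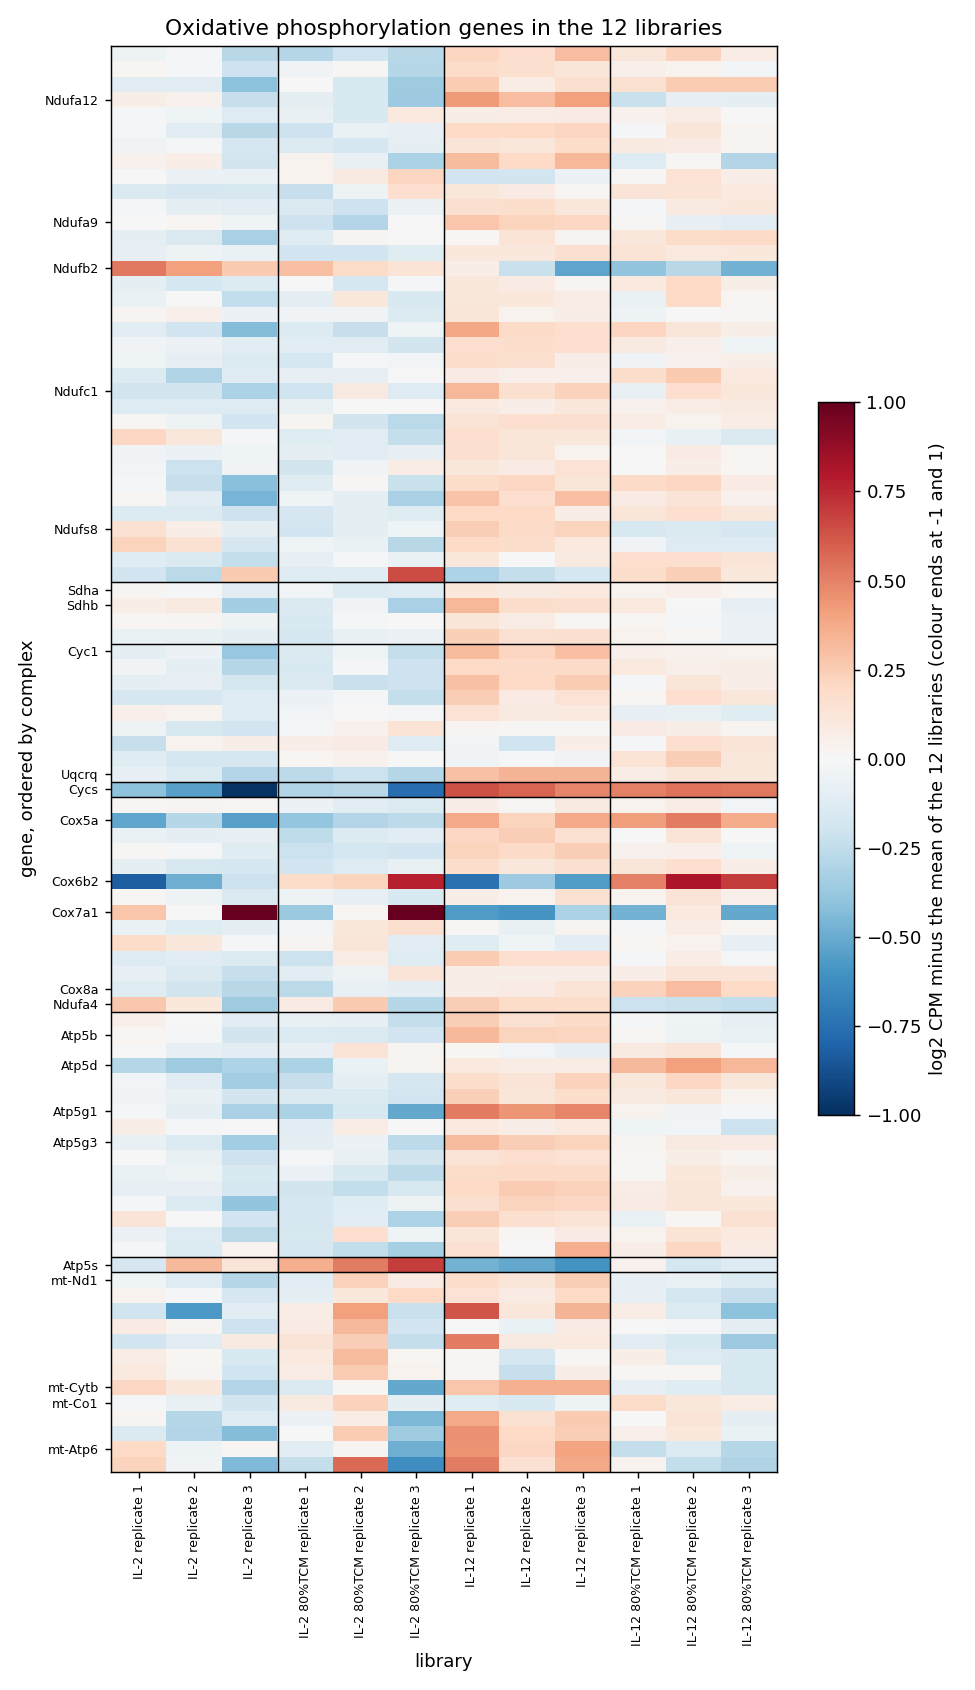
log2 CPM of each of the 93 genes (ordered by complex, the mitochondrial genes last) minus its mean over the 12 libraries, by library, with some of the genes labelled. The 3 IL-12 libraries without TCM are red for most nuclear genes, and Cox7a1 is red and Cycs bluer in replicate 3 of both IL-2 groups.

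Tissue isoforms other than the common one were scarce in these cells. Cox4i2, Cox6a2, Cox8b and Ndufa4l2, isoforms known from lung, muscle, heart or hypoxic cells, had at most 0.0613 CPM and so were not among the 93 genes, while Cox4i1 was at 164 CPM per kb, Cox6a1 at 188 and Cox8a at 285. Cox7a1 was at 3.23 CPM per kb against 114 for Cox7a2 and 138 for Cox7a2l. Cox7a2 did not pass the test in any of the 4 comparisons, with differences of -0.05 to 0.17, and passed for TCM in IL-2 only with the replicate block (0.17, edgeR adjusted p = 0.013).

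Genes that serve the complexes without being part of them were counted from lists. Of 47 assembly factors tested, 8 were called higher and 6 lower without TCM in the cytokine comparison, both smaller shares than the 22.1% and 23% of all genes. Their median of 0.09 turned to -0.02 with plain library totals (4 higher, 10 lower). Surf1, which is needed to build complex IV, was at 57.2 ± 1.5 CPM in IL-2 and 41.6 ± 2 in IL-12 (SD, n = 3; -0.46, edgeR adjusted p = 7.2e-05), and Coa3 of the same complex rose by 0.27 (0.0021). TCM in IL-12 raised Ndufaf3, a complex I assembly factor, by 0.58 (edgeR adjusted p = 0.0017) and lowered Atpaf2 of complex V by 0.34 on the log2 scale (0.0013), among 3 higher and 5 lower, where 14.8% and 14.2% of all genes were. In the tricarboxylic acid cycle, which feeds the chain, 7 of 13 genes were higher and 0 lower in IL-12 without TCM, beside the same 22.1% and 23% of all genes, led by Idh3a (0.51) and Mdh2 (0.47). With plain library totals that split was 3 higher and 3 lower.

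Of 16 genes that maintain and transcribe mitochondrial DNA, 6 were lower and 0 higher with TCM in IL-12, beside 14.2% and 14.8% of all genes, with a median of -0.10. Tfam, the factor that packages and transcribes mitochondrial DNA, was at 69.3 ± 0.8 CPM in IL-12 and 57 ± 2 with TCM (SD, n = 3; -0.28, edgeR adjusted p = 0.00096). Top1mt (-0.62), Tfb1m (-0.61) and Mgme1 (-0.42) were also lower. In IL-12 against IL-2 without TCM 1 of 16 was higher, Tfam at 0.15, and 2 lower, Polg at -0.24 and Mterf2 at -0.29. Polrmt, the mitochondrial RNA polymerase, was not called in any comparison.

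Of 8 tested regulators of mitochondrial biogenesis, 3 were higher and 2 lower in IL-12 without TCM, beside 22.1% and 23% of all genes. Myc rose by 0.69 (edgeR adjusted p = 3.3e-05), Gabpb1, a subunit of an ETS-type factor, by 0.38 (0.00036) and Nrf1 by 0.31 (0.012). Ppargc1b, a coactivator, was at 9.76 ± 1.9 CPM in IL-2, 6.16 ± 1.6 in IL-2 with TCM, 6.3 ± 0.4 in IL-12 and 4.05 ± 0.2 in IL-12 with TCM (SD, n = 3), and was called lower in all 4 comparisons (-0.60 to -0.67). Esrra fell by 0.49 on the log2 scale without TCM (0.0094) and rose by 0.40 with TCM in IL-12 (0.04). Glycolysis genes gave 2 higher (Hk2 at 1.52, Slc2a1 at 0.92) and 1 lower (Pfkm at -0.79) of 17 in IL-12 without TCM, but 13 higher and 1 lower without the replicates 3 of IL-2 and IL-2 with TCM, and the median turned from -0.14 to 0.65. Of 12 hypoxia genes 0 were higher and 2 lower, and without those libraries 5 higher and 2 lower. Without those libraries 26.3% of all genes were called higher and 26% lower, beside 22.1% and 23% with them.

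Promoters of the nuclear genes were read from RefSeq windows on GRCm38.p6, from 250 bases before to 50 after the annotated start. There were 70 windows for 65 of the 80 genes. Letters were searched on both strands: GCATGCG for NRF1, CCGGAAG for ETS factors, AAGATGG for YY1, AAGGTCA for ERR receptors and CACGTG, the E-box. The NRF1 letters stood in 17.1% of these windows and in 3.58% of all 32851 windows, the ETS letters in 22.9 and 8.86%, the YY1 letters in 14.3 and 6.34%, the ERR letters in 11.4 and 4.72% and the E-box in 8.57 and 7.15%. Of 47 genes with a window that were higher in IL-12 without TCM, 15 had the ETS letters and 10 the YY1 letters. Of the 18 others 1 and 0 had them. In the 47 and the 18 genes the NRF1 letters stood in 8 and 4, the ERR letters in 5 and 3 and the E-box in 3 and 2. These are matches of letters and no test was made.

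The 150 bases before the start are shown for 4 genes that rose together in IL-12 without TCM and hold a match, for Cox5a, which rose but holds none, and for Cox6b2, which rose with TCM. Capitals mark the matches, on the strand of the gene, so that a match on the other strand reads in reverse complement. In Cycs (chr6:50566570-50566719, minus strand) 2 overlapping NRF1 matches form a palindrome, in Atp5g3 (chr2:73911327-73911476, minus) the match is ERR, and in Uqcr11 (chr10:80406822-80406971, minus) and Cox6a1 (chr5:115348959-115349108, minus) it is ETS. Outside the bases shown, the searched windows of Uqcr11 and Cox6a1 also hold the NRF1 letters and that of Atp5g3 the E-box. Cox5a lies at chr9:57521082-57521231 (plus) and Cox6b2 at chr7:4753095-4753244 (minus). GENCODE M21 exons reach into 4 of these stretches: 77 bases of the Cycs stretch lie in 5430402O13Rik, 19 of the Cox6b2 stretch in Fam71e2, and 23 of Cox6a1 and 9 of Uqcr11 in exons of these genes themselves.
Cycs: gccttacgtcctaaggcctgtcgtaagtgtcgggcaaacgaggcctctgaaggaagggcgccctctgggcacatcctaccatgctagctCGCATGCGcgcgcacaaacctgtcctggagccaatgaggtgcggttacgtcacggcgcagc
Atp5g3: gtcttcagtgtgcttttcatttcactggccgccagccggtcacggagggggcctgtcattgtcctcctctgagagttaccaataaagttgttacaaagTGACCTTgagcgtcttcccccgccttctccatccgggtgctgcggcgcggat
Uqcr11: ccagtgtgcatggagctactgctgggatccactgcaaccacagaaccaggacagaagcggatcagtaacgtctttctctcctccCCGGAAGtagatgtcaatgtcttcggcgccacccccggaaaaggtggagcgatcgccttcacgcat
Cox6a1: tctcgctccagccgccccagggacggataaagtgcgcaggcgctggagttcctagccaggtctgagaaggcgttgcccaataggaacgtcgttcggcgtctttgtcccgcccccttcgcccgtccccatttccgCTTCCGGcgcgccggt
Cox5a: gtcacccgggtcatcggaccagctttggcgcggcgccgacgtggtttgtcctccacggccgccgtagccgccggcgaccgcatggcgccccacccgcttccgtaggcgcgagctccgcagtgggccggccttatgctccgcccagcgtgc
Cox6b2: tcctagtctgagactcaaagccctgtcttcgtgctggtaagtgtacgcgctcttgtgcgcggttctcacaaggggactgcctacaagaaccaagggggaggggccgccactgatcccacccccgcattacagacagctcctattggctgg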

How the data were processed

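Total RNA of 12 libraries was prepared with the NEBNext Ultra II directional kit, per the labels' protocols. The same protocol text speaks of bortezomib and liver where all other labels give T cells, so it may have been written for another study, and the kit is uncertain too. The deposited table holds whole-number read counts per gene for all libraries, and STAR 2.7.7a, edgeR and the build GRCh38 are named in the submitters' processing notes, although the gene identifiers are from mouse. The counting tool, its strand setting and its handling of reads that match several places are not given in the sources used here. Deposited per-sample signal values equal those counts times 1 constant per library and were used only to check them. Counts were tested with edgeR 4.0.16 in R 4.3.3: 1 mean per group over all 12 libraries, TMM scaling, filterByExpr with a minimum count of 10 and total of 15, the quasi-likelihood F test, and Benjamini-Hochberg adjustment over 15897 genes with a threshold of 0.05. Levels are CPM with TMM-scaled totals, and CPM per kb divides by the length of annotated exons. The common biological coefficient of variation was 0.104. The procedure was tested on simulated counts. DESeq2 1.42.0, limma 3.58.1 on log2(CPM + 1), scaling, filters and leaving out libraries served as alternatives, and copies were searched with blastn 2.17.0.

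Same-numbered libraries of IL-2 and IL-2 with TCM deviated together (correlations 0.28, 0.25 and 0.57). Replicate 1 of either group and replicate 2 of the other did so as much (0.3 and 0.27), so this sets replicate 3 apart and does not tell 1 from 2. With all same-numbered correlations over 0.1, the number was also fitted as a block within these groups. Deviations are from the mean of the 3 libraries, so this limit can be passed where only replicate 3 stands apart. The labels name no shared source. In that fit the cytokine comparisons set IL-12 against the fitted level of replicate 1 of the IL-2 groups, not their mean. The TCM comparisons and their difference do not depend on which replicate is the reference. In the IL-12 groups the number was not treated as a pairing. The genes, the gene lists and this treatment were chosen with earlier results of these data known. Named genes were, per comparison, up to 6 called nuclear genes with the highest and 6 with the lowest fold change, all 13 mitochondrial genes, core subunits, isoform families, and up to 3 called genes per list; Atp5l, Uqcr11, Polrmt and some other list genes were chosen after their values were seen. Some results for single genes are not reported here.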

Additional observations from a re-analysis of the deposited data

Results flagged for a closer look

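The effect of TCM on mt-Nd1, a mitochondrially encoded subunit of complex I, differed between the cytokines by -0.50 on the log2 scale in the test of the difference itself (edgeR adjusted p = 0.048). It was 0.22 in IL-2 and -0.28 in IL-12. The call was lost in 9 of 12 repeats that left out 1 library (edgeR adjusted p up to 0.15). Among the copies found, none belonged to mt-Nd1.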

How the results depend on the processing

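None of the nuclear or mitochondrial genes called in a comparison had the other sign under any of the alternatives run. For TCM in IL-2, 4 nuclear genes were called, 0 with only the compared groups fitted, and 14 without the replicates 3 of IL-2 and IL-2 with TCM, and leaving out 1 library gave 2 to 10. The mitochondrial count of 0 was 3 without the filter, 1 with DESeq2 and 4 without both replicates 3, and 0 to 2 with 1 library left out. Of all genes 14.5% were called, 3.81% with only the compared groups and 24.7% without both replicates 3. The share was 8.8% without the filter, 15.7% with DESeq2 and 7.95 to 18.1% with 1 library left out. For TCM in IL-12 the nuclear count of 23 was 39 with only the compared groups or without both replicates 3, and 11 to 29 with 1 library left out. The mitochondrial 5 were 9 without the filter, 10 with only the compared groups or without both replicates 3, and 2 to 9. Of all genes 29% were called, 48.9% with only the compared groups and 46% without both replicates 3. The share was 14.9% without the filter and 18 to 35.2% with 1 library left out. For IL-12 against IL-2 without TCM the nuclear 62 were 35 with plain library totals, an alternative chosen after seeing the data, and 45 to 63, and the mitochondrial 5 were 3 with those totals, 8 without the filter and 2 to 7. The share of all genes was 45.1%, 45.6% with plain totals, 22.7% without the filter and 34.3 to 50.3% with 1 library left out. With TCM the nuclear 38 were 17 with plain totals and 18 to 41, and the mitochondrial 1 was 4 with plain totals, 2 without the filter, 7 without both replicates 3 and 0 to 2. There 39% of all genes were called, 41% with plain totals, 19.5% without the filter and 48% without both replicates 3. Leaving out 1 library gave 30.1 to 41.5% of all genes. For the difference of the TCM effect the nuclear 0 was 1 without the filter, 9 without both replicates 3 and 0 to 3, and the mitochondrial 1 was 4 without the filter, 2 with DESeq2, 8 without both replicates 3 and 0 to 5. The share of all genes was 1.58%, 2.41% without the filter, 3.43% with DESeq2 and 13.2% without both replicates 3. With 1 library left out it was 0.642 to 7.19%. The causes were not tested.

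With replicate block terms only in the libraries given IL-2, nuclear counts were 16 for TCM in IL-2, 35 for TCM in IL-12 and 7 for the difference. The mitochondrial counts were 5, 10 and 5, beside 27.9, 42 and 10.5% of all genes. The cytokine comparisons of that fit are against the fitted level of replicate 1 of the IL-2 groups, not their mean. Without and with TCM they gave 51 and 29 nuclear and 6 and 2 mitochondrial calls, beside 44.1 and 39% of all genes. With the block over all libraries the nuclear counts were 5 and 28 for TCM in IL-2 and IL-12 and 0 for the difference. The mitochondrial ones were 0, 5 and 1, beside 17.1, 31.1 and 2.08% of all genes. The cytokine comparisons gave 61 and 39 nuclear and 6 and 2 mitochondrial calls, beside 46.9 and 41.2%.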
